A study of Mus musculus with 10 samples.

Results

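The transcripts described here encode 9 cytokine receptor chains that act on myeloid and on megakaryocyte-erythroid cells: Csf2ra, Csf2rb, Csf2rb2, Csf3r, Il3ra, Il5ra, Il6ra, Il6st and Epor. They were chosen by gene symbol, and all 9 were found among the 23240 genes of the expression table. RNA sequencing was run on progenitors sorted from mouse bone marrow, as 10 libraries in 5 groups of 2. All mice carried the Tg(vav-Cre) transgene, which expresses Cre recombinase in blood-forming cells, and the alleles of Runx1, a transcription factor gene of blood development, were either floxed (Runx1fl/fl, labelled Runx1Δ/Δ and called Runx1-deleted here) or intact (Runx1+/+, labelled Runx1wt/wt, wild type).

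The 5 groups were Runx1-deleted XMP, Runx1-deleted GMP, wild-type GMP, Runx1-deleted MEP and wild-type MEP. All groups shared a gate that was negative for lineage markers, Sca, CD41 and CD105 and positive for Kit. GMP, the granulocyte-macrophage progenitors, were positive for CD16/32 and negative for CD150. MEP, the megakaryocyte-erythroid progenitors, were negative for CD16/32 and positive for CD150. XMP is the submitters' name for cells positive for both, and wild-type XMP were not analysed here. The sources used here do not say whether the 2 libraries of a group came from separate animals, so the p-values below measure the spread between libraries, which may be technical. In bulk RNA, fewer cells that express a receptor and less receptor RNA per cell cannot be told apart.

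These receptors have no kinase of their own and signal through the JAK kinases bound to their chains, which in turn activate STAT transcription factors. The receptors for granulocyte-macrophage colony-stimulating factor (GM-CSF), interleukin-3 (IL-3) and interleukin-5 (IL-5) each pair a private alpha chain, which binds the ligand, with a shared beta chain, which signals. The receptors for granulocyte colony-stimulating factor (G-CSF) and erythropoietin are pairs of a single chain, and the interleukin-6 (IL-6) receptor joins a ligand-binding chain to the signalling chain gp130.

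The promoters of 3 receptors that were higher in Runx1-deleted than in wild-type MEP are printed, since Runx1 encodes a factor that binds DNA. Each runs from 250 bases before to 50 bases after the RefSeq gene start on GRCm38.p6, read 5′ to 3′ along the gene. Capitals mark matches on either strand. The letters searched were TGTGGT or, in its place, TGCGGT for RUNX factors. They were AGATAA for GATA factors and GAGGAA for PU.1. No match overlapped one of another factor in these windows. The window of Csf2rb2 was chr15:78305672-78305971 on the minus strand, that of Csf3r was chr4:126024409-126024708 on the plus strand, and that of Epor was chr9:21963527-21963826 on the minus strand.
Csf2rb2: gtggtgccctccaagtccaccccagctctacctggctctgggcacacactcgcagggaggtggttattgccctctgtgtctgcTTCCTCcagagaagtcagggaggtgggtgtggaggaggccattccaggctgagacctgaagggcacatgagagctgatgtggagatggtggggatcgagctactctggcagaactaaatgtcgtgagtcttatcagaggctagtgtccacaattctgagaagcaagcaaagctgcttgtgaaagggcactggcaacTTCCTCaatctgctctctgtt
Csf3r: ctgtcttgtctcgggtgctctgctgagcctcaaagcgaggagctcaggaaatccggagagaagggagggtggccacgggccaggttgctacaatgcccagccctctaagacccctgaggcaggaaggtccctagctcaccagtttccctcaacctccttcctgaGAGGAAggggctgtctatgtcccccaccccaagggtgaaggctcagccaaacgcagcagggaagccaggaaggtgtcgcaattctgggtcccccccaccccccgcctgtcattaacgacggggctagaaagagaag
Epor: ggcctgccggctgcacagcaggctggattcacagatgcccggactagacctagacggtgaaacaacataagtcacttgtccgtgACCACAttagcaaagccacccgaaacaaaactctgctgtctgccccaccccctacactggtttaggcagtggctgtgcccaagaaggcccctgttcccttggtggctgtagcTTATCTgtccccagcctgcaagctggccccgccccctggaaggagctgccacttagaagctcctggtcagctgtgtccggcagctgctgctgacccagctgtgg
The Epor window held 1 RUNX match, which began at position -166 from the start, and 1 GATA match at -54. The window of Csf2rb2 held 2 PU.1 matches and that of Csf3r held 1, and neither held the RUNX or GATA letters searched. Other letters for GATA factors were not searched, such as the TTATCA in the window of Csf2rb2. Among the windows not printed, those of Il6ra and Il5ra held 1 GATA match each, at -245 and -74. Among all 32851 RefSeq promoters of the same length, 22.4% held the RUNX letters, 11.2% the GATA letters and 28.3% the PU.1 letters. Of the 9 receptors, 8 had an entry in the promoter table, all but Csf2rb. These matches describe letters in a window and are not evidence of binding.

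Levels are the authors' RPKM, which divides reads by gene length and library size, so that genes can be set beside each other. A length trend that differed between libraries, given below, limits such comparisons. The totals behind them, worked back from the deposited values, were 20.8 M to 54.9 M reads per library. The receptors that passed the filter of at least 1 RPKM in at least 2 libraries, 8 of 9, had 13 to 14356 reads in a library, and Il5ra, with 1 to 108 reads, did not pass. Mpo, a granulocyte enzyme, reached 3743 to 5644 RPKM in the GMP libraries and 6.42 to 13.03 RPKM in the MEP libraries, while Klf1, an erythroid regulator, was at 1.60 to 5.53 RPKM in GMP and 93.3 to 152.9 RPKM in MEP. XMP lay between them for both genes, with 76.9 and 53.8 RPKM of Mpo and 33.0 and 25.6 RPKM of Klf1. Itga2b, which encodes the CD41 that the gate excludes, was at 652 and 683 RPKM in XMP, above the other 8 libraries (28.2 to 218.5 RPKM). Runx1 itself was listed at 36.8 to 85.9 RPKM in Runx1-deleted libraries and at 17.2 to 28.5 RPKM in wild-type libraries. A level over the whole gene does not read the deleted part, so it does not check the genotype labels.

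The shared beta chains differed by both cell type and genotype. Csf2rb encodes the beta common chain of the GM-CSF, IL-3 and IL-5 receptors. It was at 19.97 and 33.1 RPKM in XMP, 54.9 and 49.998 RPKM in Runx1-deleted GMP, 31.9 and 26.9 RPKM in wild-type GMP, 4.64 and 5.31 RPKM in Runx1-deleted MEP, and 1.29 and 1.47 RPKM in wild-type MEP. Runx1-deleted GMP were highest and wild-type MEP lowest, both apart from every other group. The libraries of XMP and wild-type GMP overlapped.

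Csf2rb2 encodes a second beta chain, found in mice, that pairs with the IL-3 alpha chain. It was at 6.33 and 11.8 RPKM in XMP, 15.1 and 13.4 RPKM in Runx1-deleted GMP, 6.24 and 4.90 RPKM in wild-type GMP, 2.03 and 2.68 RPKM in Runx1-deleted MEP, and 0.369 and 0.634 RPKM in wild-type MEP. Its 5 groups did not overlap, and both XMP libraries lay above the wild-type GMP. Csf2rb2 made up 24.1% and 26.3% of the summed RPKM of both beta chains in XMP, 21.6% and 21.2% in Runx1-deleted GMP, 16.4% and 15.4% in wild-type GMP, and it made up 30.5% and 33.5% in Runx1-deleted MEP, and 22.2% and 30.1% in wild-type MEP. The transcripts of the 2 genes share sequence: 18.4% of the 50-base windows of the longest Csf2rb transcript occur in Csf2rb2 and 19% in the other direction. How reads of these windows were assigned is not given in the sources used here, so the separate levels of both genes are uncertain.

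The G-CSF receptor Csf3r, which drives neutrophil production, followed the same order of groups as Csf2rb. It was at 17.4 and 22.3 RPKM in XMP, 62.6 and 64.6 RPKM in Runx1-deleted GMP, 37.0 and 25.1 RPKM in wild-type GMP, 7.81 and 9.53 RPKM in Runx1-deleted MEP, and 1.24 and 2.12 RPKM in wild-type MEP. No group of Csf3r overlapped another. In Runx1-deleted GMP it was the most abundant of the 9 receptors (63.6 ± 1.39 RPKM, SD, n = 2), whereas in wild-type GMP the first place by mean was held by Csf2ra. The wild-type GMP libraries of these genes overlapped, with Csf2ra at 49.997 and 36.1 RPKM. Csf3r is the longer gene (4047 against 1849 bases), so this order carries the length trend given below. The part of that trend was not tested.

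The alpha chains did not share the genotype pattern of the beta chains. Csf2ra, the GM-CSF alpha chain, was at 19.2 and 19.8 RPKM in XMP, 32.2 and 36.9 RPKM in Runx1-deleted GMP, 49.997 and 36.1 RPKM in wild-type GMP, 13.6 and 16.2 RPKM in Runx1-deleted MEP, and 21.1 and 22.6 RPKM in wild-type MEP. It was the most even of the tested receptors across cell types and had the highest mean of the 9 in both MEP groups. Its GMP genotypes overlapped, and its MEP genotypes did not, with the Runx1-deleted libraries below.

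Il3ra, the IL-3 alpha chain, was at 9.46 and 9.84 RPKM in XMP, 34.3 and 37.0 RPKM in Runx1-deleted GMP, 41.8 and 20.8 RPKM in wild-type GMP, 4.55 and 5.37 RPKM in Runx1-deleted MEP, and 9.70 and 7.25 RPKM in wild-type MEP. The 2 wild-type GMP libraries enclosed both Runx1-deleted ones, and XMP overlapped wild-type MEP. Il5ra, the IL-5 alpha chain of eosinophils and some B cells, was low throughout, with 0.0807 and 0.0129 RPKM in XMP, 0.554 and 0.635 RPKM in Runx1-deleted GMP, 0.720 and 0.567 RPKM in wild-type GMP, 0.0301 and 0.0465 RPKM in Runx1-deleted MEP, and 0.0309 and 0.0062 RPKM in wild-type MEP. GMP of both genotypes held 42 to 108 reads of it per library, while the other 6 libraries held 1 to 12.

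Eosinophil markers moved with Il5ra between cell types. Of 6 listed markers 5 were in the table, and 4 reached 1 RPKM in the GMP groups. Their summed level was 8.35 and 8.47 RPKM in XMP, 286.8 and 149.8 RPKM in Runx1-deleted GMP, 582.8 and 594.8 RPKM in wild-type GMP, 7.99 and 11.3 RPKM in Runx1-deleted MEP, and 25.8 and 10.9 RPKM in wild-type MEP, with none at 0 in a group. Their part in the level of Il5ra was not tested.

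**Figure D1:**
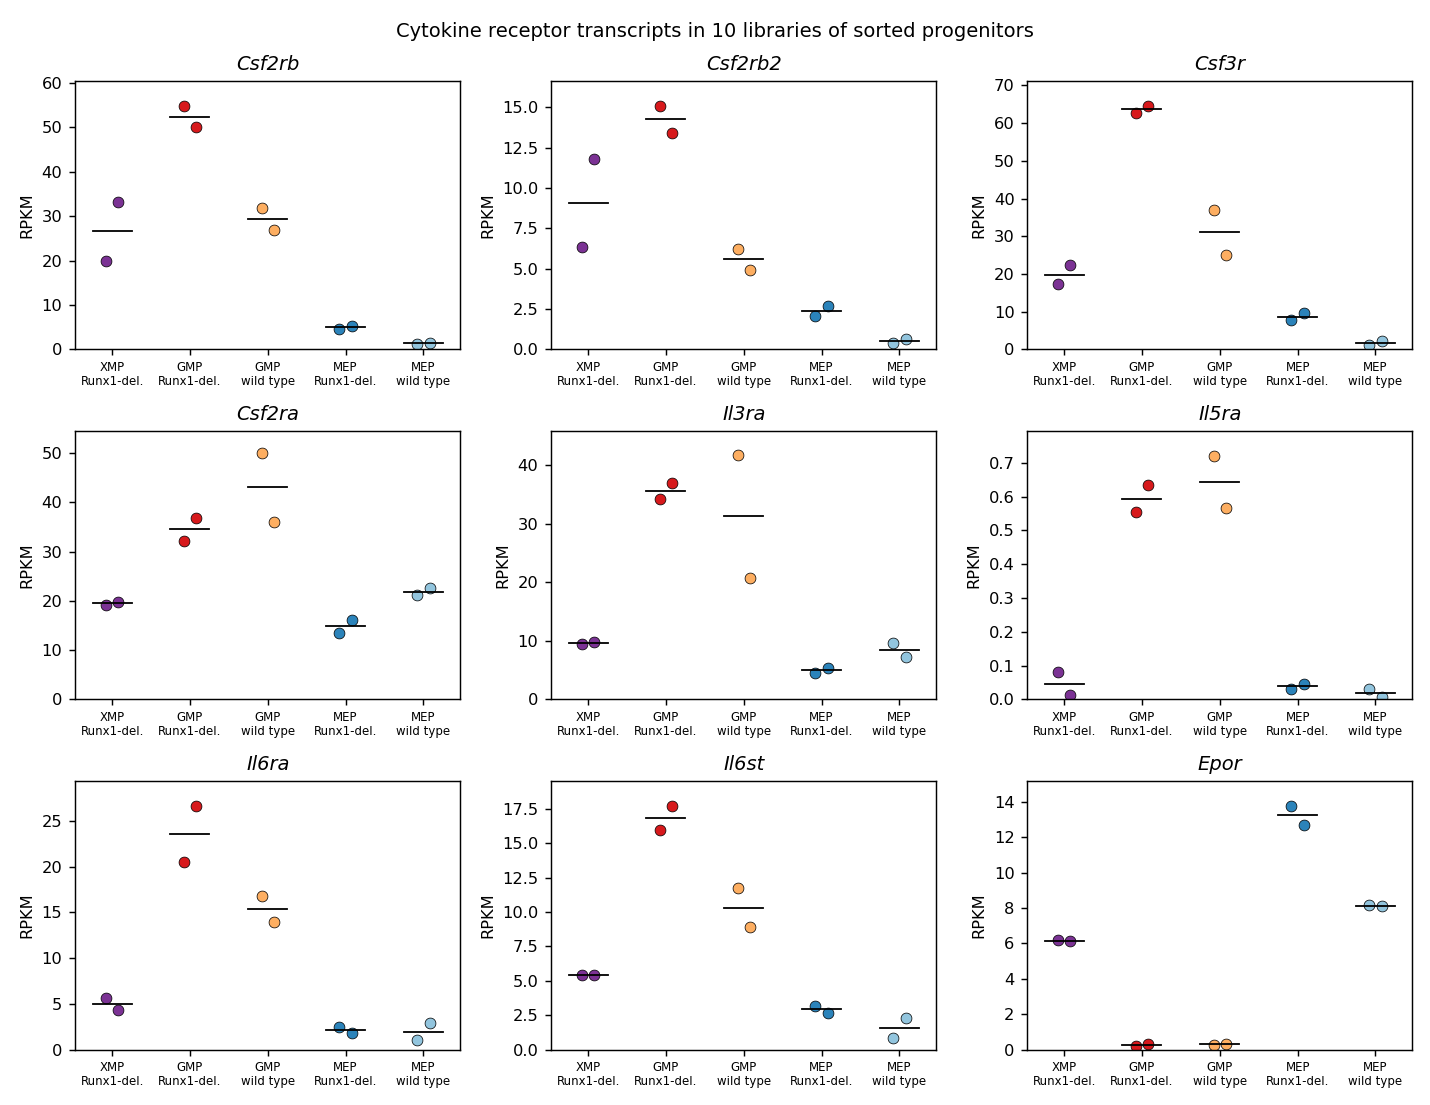
RPKM (vertical axes, linear, each panel with its own scale from 0) of the 9 receptors in the 2 libraries of each group; points are libraries and lines are group means. Csf2rb, Csf2rb2 and Csf3r stand higher in the Runx1-deleted than in the wild-type libraries of both GMP and MEP, and Epor is at 0.219 to 0.341 RPKM in GMP, below its other libraries.

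The IL-6 receptor chains were GMP-high. Il6ra, which binds IL-6, was at 5.68 and 4.32 RPKM in XMP, 20.6 and 26.7 RPKM in Runx1-deleted GMP, 16.8 and 13.9 RPKM in wild-type GMP, 2.44 and 1.78 RPKM in Runx1-deleted MEP, and 1.003 and 2.87 RPKM in wild-type MEP. Il6st, the gp130 chain that the receptors of several cytokines of the IL-6 family share, was at 5.42 and 5.45 RPKM in XMP, 16.0 and 17.7 RPKM in Runx1-deleted GMP, 11.7 and 8.89 RPKM in wild-type GMP, 3.18 and 2.69 RPKM in Runx1-deleted MEP, and 0.811 and 2.29 RPKM in wild-type MEP. The genotypes of MEP overlapped for Il6ra, and the genotypes of GMP did not overlap for either chain. The 2 wild-type MEP libraries lay far apart for both chains, with replicate 2 higher.

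Epor, the erythropoietin receptor that erythroid progenitors need to survive, ran the other way. It was at 6.18 and 6.12 RPKM in XMP, 0.219 and 0.296 RPKM in Runx1-deleted GMP, 0.261 and 0.341 RPKM in wild-type GMP, 13.8 and 12.7 RPKM in Runx1-deleted MEP, and 8.14 and 8.13 RPKM in wild-type MEP. Both MEP groups and XMP stood apart from each other and above the GMP libraries, whose genotypes overlapped. The plot of RPKM by group shows it as the one receptor with its highest values in MEP.

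The first comparison asked what loss of Runx1 changed within GMP. Csf2rb2 and Csf3r rose in Runx1-deleted GMP, and no receptor fell. Csf2rb2 averaged 14.3 ± 1.18 RPKM in Runx1-deleted GMP and 5.57 ± 0.944 RPKM in wild-type GMP (SD, n = 2 each), a difference of 1.22 ± 0.26 on the log2(RPKM + 1) scale (SE; limma with Benjamini-Hochberg adjustment over 10905 genes, adjusted p = 0.0195). Csf3r averaged 63.6 ± 1.39 RPKM in Runx1-deleted GMP and 31.0 ± 8.42 RPKM in wild-type GMP, a log2 difference of 1.04 ± 0.24 (limma adjusted p = 0.0272). That scale understates the change of genes with low values.

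So 2 of the 8 tested receptors were higher and 0 lower at an adjusted p under 0.05, while 5.22% of all tested genes were called in this comparison, 3.15% higher and 2.07% lower. Csf2rb had a log2 difference of 0.82 ± 0.23 and did not pass (limma adjusted p = 0.0664), although its libraries did not overlap. Il6st (0.67, limma adjusted p = 0.167) and Il6ra (0.58, limma adjusted p = 0.265) did not pass either. Il3ra, Csf2ra and Epor lay at 0.26, -0.30 and -0.05 with adjusted p of 0.588, 0.366 and 0.873 in limma. The median over the 8 receptors was 0.62, against 0.05 over all tested genes. In limma 4 of the 8 had an unadjusted p under 0.05, as did 2486 of all 10905 tested genes. With quantile normalization the calls over all genes split into 306 higher and 306 lower, against 343 and 226 as deposited, and both receptor calls stayed.

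The call of Csf2rb2 in GMP ended without any 1 of the 4 GMP libraries, and that of Csf3r without 3 of them. Both ended without a filter (0.0823 and 0.077), and that of Csf3r with a pseudocount of 0.1 (0.0546). The adjusted p of Csf2rb2 in limma was 0.172 and 0.0979 without replicate 1 or 2 of Runx1-deleted GMP, and 0.0547 and 0.221 without replicate 1 or 2 of wild-type GMP. For Csf3r it was 0.176 and 0.192 without replicate 1 or 2 of Runx1-deleted GMP and 0.304 without replicate 2 of wild-type GMP. Csf2rb passed without either wild-type MEP library (limma adjusted p = 0.0396 each time) and without replicate 1 or 2 of XMP (0.0374 and 0.0389), and Il6st passed without replicate 1 or 2 of wild-type MEP (0.0232 and 0.0229), which enter through the shared estimate of spread. The sequencing lane named in the column headers coincided with genotype in GMP (lane 5 for both Runx1-deleted libraries, lanes 3 and 2 for the wild-type ones), so lane and genotype cannot be told apart there.

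Gene length moved with genotype in the same libraries. The median deviation of genes of at least 4616 bases less that of genes of at most 1539 bases was 0.301 and 0.216 (log2) in Runx1-deleted GMP and -0.310 and -0.381 in wild-type GMP. The deposited lengths of Csf2rb2, Csf2rb and Csf3r, worked back from the values, were 4619, 4765 and 4047 bases. With this length trend removed, the log2 difference was 1.01 for Csf2rb2 (limma adjusted p = 0.039) and 0.86 for Csf3r (limma adjusted p = 0.0173). Marker lists went both ways between the GMP genotypes. Granulocyte markers summed to 7577 and 7906 RPKM in Runx1-deleted GMP, below 11735 and 11493 RPKM in wild-type GMP. Of these, 5 of 6 reached 1 RPKM in both groups, and none was at 0. Erythroid markers were higher, at 103.1 and 187.5 RPKM against 18.8 and 27.3 RPKM. Megakaryocyte markers were higher too, at 101.2 and 103.1 RPKM against 42.9 and 36.3 RPKM. Monocyte and macrophage, eosinophil, and mast cell and basophil markers were lower in Runx1-deleted GMP. The part of these markers in the results was not tested.

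The same question in MEP gave more calls. Csf3r, Csf2rb, Csf2rb2 and Epor rose in Runx1-deleted MEP, and no receptor fell. Csf3r averaged 8.67 ± 1.22 RPKM in Runx1-deleted MEP and 1.68 ± 0.622 RPKM in wild-type MEP (SD, n = 2 each), a 5.15-fold ratio of means and a log2 difference of 1.86 ± 0.24 (limma adjusted p = 0.000675). Csf2rb averaged 4.98 ± 0.473 RPKM in Runx1-deleted MEP and 1.38 ± 0.129 RPKM in wild-type MEP (log2 difference 1.33 ± 0.23, limma adjusted p = 0.00485).

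The other beta chain and Epor had smaller log2 differences on the RPKM + 1 scale. The ratio of means was nevertheless larger for Csf2rb2 (4.70) than for Csf2rb (3.60), and it was 1.63 for Epor. Csf2rb2 averaged 2.36 ± 0.456 RPKM in Runx1-deleted MEP and 0.501 ± 0.188 RPKM in wild-type MEP (log2 difference 1.16 ± 0.26, limma adjusted p = 0.0202), and its 62 and 133 reads in the wild-type libraries are the fewest behind any of these calls. Epor averaged 13.2 ± 0.752 RPKM in Runx1-deleted MEP and 8.14 ± 0.0108 RPKM in wild-type MEP (log2 difference 0.64 ± 0.16, limma adjusted p = 0.0341).

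Thus 4 of the 8 tested receptors were higher and 0 lower, beside 3.97% of all tested genes called higher and 4.03% lower. How often libraries overlap between genotypes was not counted over all genes. The overlaps given for single receptors therefore describe those libraries only. In limma 7 of the 8 had an unadjusted p under 0.05, as did 2408 of all 10905 tested genes. Il6st (log2 difference 0.69), Il3ra (-0.66), Csf2ra (-0.53) and Il6ra (0.15) did not pass, with adjusted p of 0.155, 0.191, 0.127 and 0.787 in limma. The median over the 8 receptors was 0.66, against 0.03 over all tested genes.

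Of these calls that of Csf3r held under all 18 alternatives tried, with an adjusted p of 0.000368 to 0.0148 in limma. That of Csf2rb ended only when the fit was limited to lanes 4 and 5 (adjusted p = 0.0532), which leaves 1 wild-type MEP library and takes its spread from the other groups. That of Csf2rb2 ended without replicate 1 or 2 of Runx1-deleted MEP (0.0565 and 0.165), without replicate 1 of wild-type MEP (0.095), in lanes 4 and 5 (0.133), and without a filter (0.0827). That of Epor held under 7 of 18 alternatives. It ended without replicate 1 or 2 of Runx1-deleted MEP (0.165 and 0.141), of Runx1-deleted GMP (0.0849 and 0.0843) or of XMP (0.0676 and 0.068), and also with only the MEP libraries in the fit (0.32), a pseudocount of 0.1 (0.12), no filter (0.0735) or a mean of at least 5 RPKM (0.0858). Il6st passed when replicate 2 of wild-type MEP was left out (0.00323).

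Erythroid markers moved with Epor in MEP: they summed to 385.5 and 342.1 RPKM in Runx1-deleted MEP, where 7 of 7 reached 1 RPKM, and to 193.7 and 177.7 RPKM in wild-type MEP, where 6 of 7 did, with none at 0. Their part in the result was not tested. Granulocyte markers summed to 31.7 and 29.7 RPKM in Runx1-deleted MEP and to 45.8 and 33.6 RPKM in wild-type MEP. In each group 4 of 6 were at 1 RPKM or more and none was at 0. Their part in the results was not tested either. The monocyte and macrophage markers summed to 6.85 and 8.37 RPKM in Runx1-deleted MEP, where 5 of 6 reached 1 RPKM and Cx3cr1 was at 0, and to 12.6 and 10.3 RPKM in wild-type MEP, where 3 of 6 did. The length trend differed between the 2 wild-type MEP libraries (-0.945 and 0.139, log2) and was -0.003 and 0.275 in the Runx1-deleted ones, and with it removed the 4 calls stayed (limma adjusted p of 0.000368 to 0.0311).

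**Figure D2:**
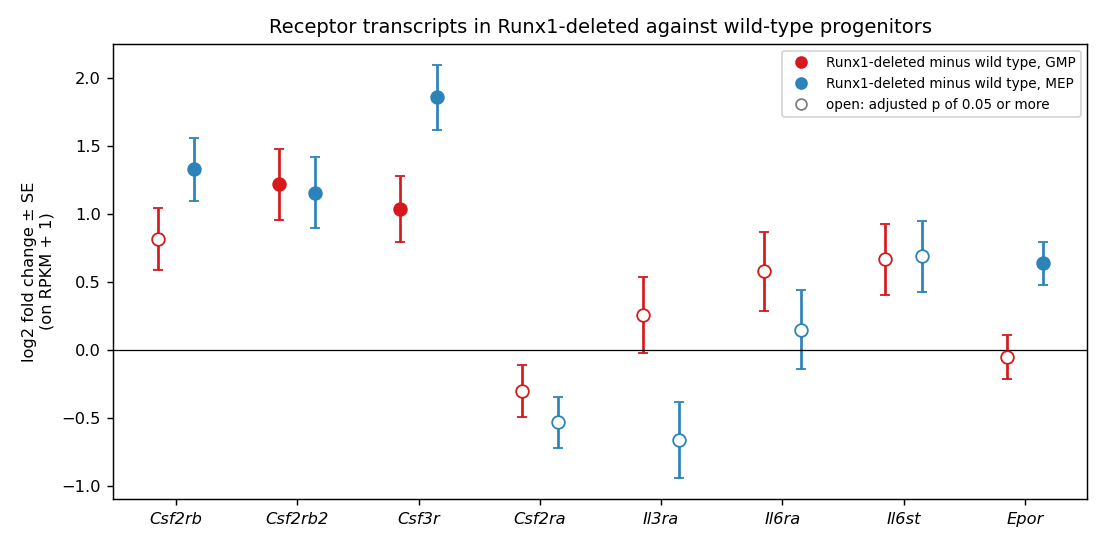
Log2 difference (vertical axis, on RPKM + 1, ± SE from limma) of Runx1-deleted over wild-type progenitors for the 8 tested receptors, in GMP (red) and MEP (blue); filled points have an adjusted p under 0.05. Csf2rb2 and Csf3r are filled in both cell types, Csf2rb and Epor in MEP.

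The genotype effects in GMP and MEP were then compared with each other. None of the 8 receptors differed between cell types in limma at an adjusted p under 0.05, where 1.74% of all tested genes did (0.954% higher and 0.789% lower). An unadjusted p under 0.05 was reached by 3 of the 8 and by 1096 of all 10905 tested genes. The effect in GMP less that in MEP was -0.83 ± 0.33 for Csf3r (limma adjusted p = 0.384), 0.92 ± 0.39 for Il3ra (limma adjusted p = 0.43) and -0.69 ± 0.23 for Epor (limma adjusted p = 0.226). For Csf2rb2 it was 0.06 ± 0.37, on a scale that understates changes at low values. Its ratio of means between genotypes was 2.56 in GMP and 4.70 in MEP. So no receptor was shown to have an effect particular to GMP or to MEP, although in the plot of both effects the SE bars of Csf3r, Csf2rb, Il3ra and Epor do not overlap.

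The balance between chains followed from these shifts. The ratio of Csf2rb to Csf2ra was 1.04 and 1.67 in XMP, 1.71 and 1.36 in Runx1-deleted GMP, 0.638 and 0.745 in wild-type GMP, then 0.342 and 0.329 in Runx1-deleted MEP, and 0.0611 and 0.0652 in wild-type MEP. Genotypes did not overlap in either cell type, with more beta than alpha transcript in Runx1-deleted GMP and XMP only. Csf2rb is longer than Csf2ra (4765 against 1849 bases), so the ratio carries the length trend of the libraries. That trend is given above for GMP and MEP, and it was 0.247 and 0.511 (log2) in replicates 1 and 2 of XMP. The part of the trend in the ratio was not tested. The ratio of Csf2rb to Il3ra averaged 2.74 ± 0.889 in XMP, 1.48 ± 0.177 in Runx1-deleted GMP, 1.03 ± 0.374 in wild-type GMP, 1.004 ± 0.0221 in Runx1-deleted MEP and 0.168 ± 0.0496 in wild-type MEP (SD, n = 2 each).

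For the IL-6 receptor the ratio of Il6ra to Il6st was 1.048 and 0.793 in XMP, 1.29 and 1.51 in Runx1-deleted GMP, 1.43 and 1.57 in wild-type GMP, then 0.768 and 0.663 in Runx1-deleted MEP, and 1.24 and 1.25 in wild-type MEP. Here the genotypes overlapped in GMP and not in MEP, where the Runx1-deleted libraries had less ligand-binding chain per gp130. These ratios compare transcripts per length within a library and were not tested.

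**Figure D3:**
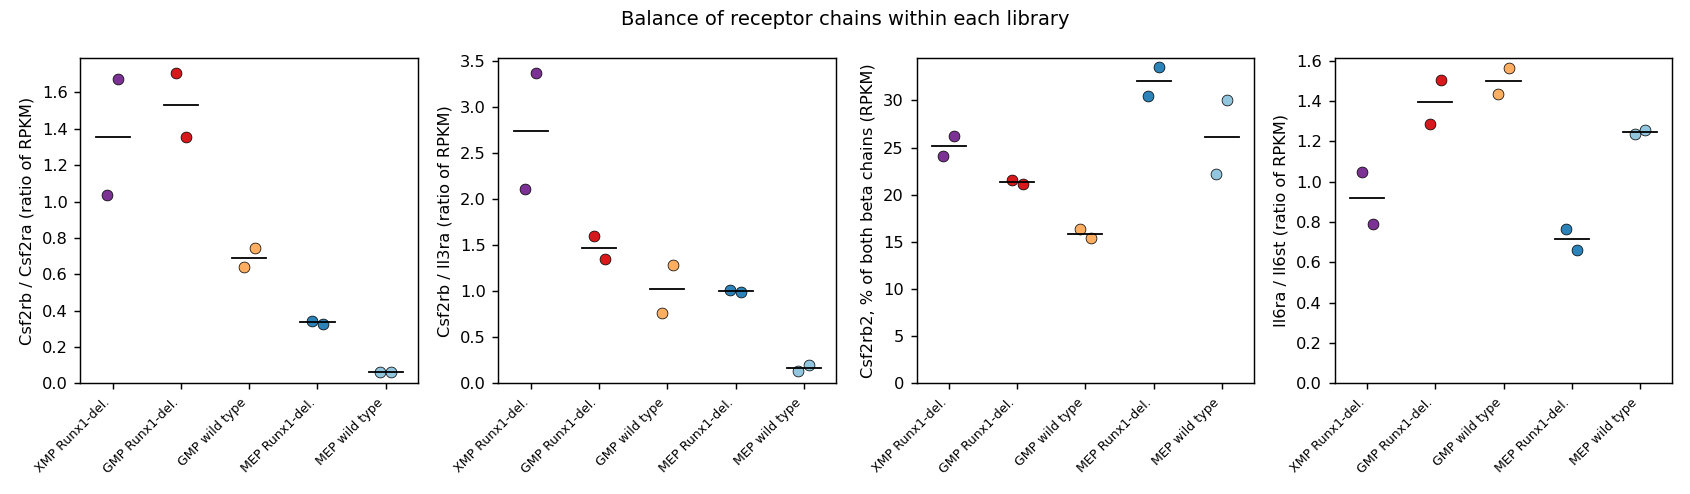
Ratios of receptor chain transcripts within each library (RPKM over RPKM, and Csf2rb2 as a percentage of both beta chains), with points for libraries and lines for group means. The ratio of Csf2rb to Csf2ra lies at 1.04 to 1.71 in XMP and Runx1-deleted GMP and at 0.0611 and 0.0652 in wild-type MEP.

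The next comparison placed XMP between the other Runx1-deleted progenitors. Against Runx1-deleted GMP, XMP had more Epor and less of 6 receptors. Epor averaged 6.15 ± 0.0410 RPKM in XMP and 0.258 ± 0.0547 RPKM in Runx1-deleted GMP (log2 difference 2.51 ± 0.16, limma adjusted p = 8.73e-07). Il6ra averaged 4.9996 ± 0.966 RPKM in XMP and 23.6 ± 4.32 RPKM in Runx1-deleted GMP (log2 difference -2.03 ± 0.29, limma adjusted p = 0.000399).

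Il3ra (-1.78), Csf3r (-1.64), Il6st (-1.47), Csf2rb (-1.0) and Csf2ra (-0.79) were lower in XMP too, with adjusted p of 0.000661, 0.000381, 0.00183, 0.00853 and 0.0115 in limma. Csf2rb2, at -0.65 ± 0.26, did not pass (limma adjusted p = 0.117). That is 1 receptor higher and 6 lower of 8, beside 19.7% of all tested genes called, 9.75% higher and 9.90% lower. The call of Csf2ra ended without replicate 1 or 2 of XMP (0.0735 and 0.0595) or replicate 2 of Runx1-deleted GMP (0.122). The call of Csf2rb ended without replicate 1 of XMP (0.112) or of Runx1-deleted GMP (0.0829), and Csf2rb2 passed without replicate 2 of XMP (0.0205).

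Cell type markers moved with the receptors in this comparison. Granulocyte markers summed to 161.5 and 128.4 RPKM in XMP and to 7577 and 7906 RPKM in Runx1-deleted GMP, with 5 of 6 at 1 RPKM or more in each group. Monocyte and macrophage markers summed to 25.9 and 19.4 RPKM in XMP and to 396.4 and 474.8 RPKM in Runx1-deleted GMP, again with 5 of 6 at 1 RPKM or more. Erythroid markers summed to 434.9 and 225.9 RPKM in XMP, where 6 of 7 reached 1 RPKM, and to 103.1 and 187.5 RPKM in Runx1-deleted GMP, where 3 did. Megakaryocyte markers summed to 1352 and 1108 RPKM in XMP, where 6 of 6 reached 1 RPKM, and to 101.2 and 103.1 RPKM in Runx1-deleted GMP, where 5 did. None of these markers was at 0, and their part in the results was not tested.

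Against Runx1-deleted MEP, XMP had more of Csf2rb, Csf2rb2 and Csf3r and less Epor. Csf2rb averaged 26.6 ± 9.31 RPKM in XMP and 4.98 ± 0.473 RPKM in Runx1-deleted MEP (log2 difference 2.17 ± 0.23, limma adjusted p = 0.000407). Csf2rb2 averaged 9.07 ± 3.88 RPKM in XMP and 2.36 ± 0.456 RPKM in Runx1-deleted MEP (1.54 ± 0.26, limma adjusted p = 0.00492). The XMP libraries differed from each other for both beta chains, with replicate 2 higher. Replicate 2 also had the larger length trend (0.511 against 0.247, log2), whose part in this difference was not tested.

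Csf3r averaged 19.8 ± 3.46 RPKM in XMP and 8.67 ± 1.22 RPKM in Runx1-deleted MEP (1.10 ± 0.24, limma adjusted p = 0.0167), and Epor averaged 6.15 ± 0.0410 RPKM in XMP and 13.2 ± 0.752 RPKM in Runx1-deleted MEP (-0.99 ± 0.16, limma adjusted p = 0.00412). So 3 of 8 receptors were higher and 1 lower, beside 7.74% of all tested genes called, 5.14% higher and 2.60% lower. With quantile normalization the calls over all genes were 626 higher and 526 lower, against 560 and 284 as deposited. Il6ra (0.95), Il3ra (0.84), Il6st (0.71) and Csf2ra (0.38) did not pass, with adjusted p of 0.0817, 0.099, 0.146 and 0.31 in limma.

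The call of Csf3r against Runx1-deleted MEP ended without replicate 2 of XMP (0.144) or replicate 1 or 2 of Runx1-deleted MEP (0.121 and 0.0516). Il3ra passed without replicate 1 or 2 of wild-type GMP (0.0316 and 0.0308). Without replicate 1 or 2 of wild-type MEP, Il6ra (0.0122 and 0.0121) and Il6st (0.0165 and 0.0164) passed. Il3ra, Il6ra and Il6st also passed in lanes 4 and 5 (0.00741, 0.0218 and 0.0117), with the length trend removed (0.0398, 0.0204 and 0.0212) and with only the groups compared (0.0317, 0.0448 and 0.0382). Granulocyte markers summed to 161.5 and 128.4 RPKM in XMP, where 5 of 6 reached 1 RPKM, and to 31.7 and 29.7 RPKM in Runx1-deleted MEP, where 4 did, with none at 0, and megakaryocyte markers summed to 1352 and 1108 RPKM in XMP and 605.0 and 498.2 RPKM in Runx1-deleted MEP, with 6 of 6 at 1 RPKM or more and none at 0. Erythroid markers overlapped between these groups. They summed to 434.9 and 225.9 RPKM in XMP, where 6 of 7 reached 1 RPKM, and to 385.5 and 342.1 RPKM in Runx1-deleted MEP, where 7 did. The part of all these markers in these results was not tested.

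On the log2 scale, with Runx1-deleted MEP at 0% and Runx1-deleted GMP at 100%, XMP stood at 70.1% for Csf2rb2 and 68.5% for Csf2rb. Csf3r stood at 40.1%, and Csf2ra, Il3ra, Il6ra, Il6st and Epor at 28.3% to 32.6%. By group means on this scale, XMP were nearer to GMP for the beta chains and nearer to MEP for the other receptors. The 2 XMP libraries differed, with 19.97 and 33.1 RPKM of Csf2rb and 6.33 and 11.8 RPKM of Csf2rb2. In plain RPKM the XMP mean of Csf2rb (26.6) was nearer to MEP (4.98) than to GMP (52.4). That of Csf2rb2 (9.07) was still nearer to GMP (14.3) than to MEP (2.36). These percentages are a description, since the 3 groups also define the comparisons above.

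**Figure D4:**
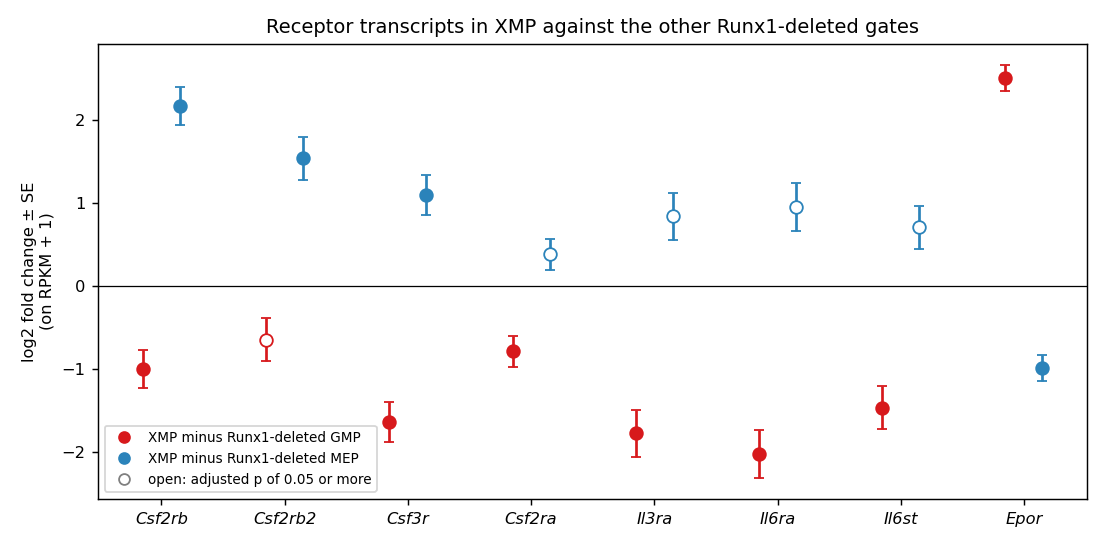
Log2 difference (vertical axis, on RPKM + 1, ± SE from limma) of XMP over Runx1-deleted GMP (red) and over Runx1-deleted MEP (blue) for the 8 tested receptors; filled points have an adjusted p under 0.05. Epor is the one receptor above 0 against GMP and below 0 against MEP.

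Between GMP and MEP of one genotype, every tested receptor was called. In wild type, 7 of 8 were higher and 1 lower in GMP, beside 21.6% of all tested genes called (11.7% higher and 9.83% lower). In Runx1-deleted progenitors 7 of 8 were higher and 1 lower too, beside 24.5% of all tested genes called (14.1% higher and 10.4% lower). In wild type the log2 difference of GMP over MEP was 3.67 ± 0.23 for Csf2rb (limma adjusted p = 5.94e-07), 3.57 ± 0.24 for Csf3r (9.79e-07) and 0.93 ± 0.19 for Csf2ra (0.00401). In Runx1-deleted progenitors it was 3.16 for Csf2rb (limma adjusted p = 1.56e-06), 2.75 for Csf3r (5.69e-06) and 1.17 for Csf2ra (0.000731). Epor was the receptor lower in GMP, at -2.81 ± 0.16 in wild type and -3.50 ± 0.16 in Runx1-deleted progenitors (limma adjusted p of 3.23e-07 and 6.44e-08). All of these calls held when any library was left out.

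Il5ra was below the filter and was fitted only with every gene that had a read (19336 genes). It was then lower in XMP than in Runx1-deleted GMP (log2 difference -0.61, limma adjusted p = 0.000377) and higher in GMP than in MEP, by 0.69 in wild type (limma adjusted p = 0.000185) and 0.62 in Runx1-deleted progenitors (0.000272). It was not called between genotypes in GMP (-0.04, limma adjusted p = 0.749) or in MEP (0.03, 0.864).

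The authors' deposited table holds p-values of Baggerley's test, corrected for the false discovery rate, for the same pairs of groups. In GMP the authors' deposited table puts Csf3r (0.000166) and Csf2rb (0.000944) under 0.05 between genotypes and Csf2rb2 at 0.101. In MEP the authors' deposited table puts none of the 9 receptors under 0.05, with Csf3r lowest at 0.119. Between MEP and GMP the authors' deposited table puts 5 of the 9 under 0.05 in wild type, where Csf2ra (0.185), Csf2rb2 (0.11) and Il3ra (0.557) are not, and 8 in Runx1-deleted progenitors. For XMP against Runx1-deleted GMP it lists 5 receptors under 0.05 and against Runx1-deleted MEP 0, with Csf3r at 0.068 in the authors' deposited table. The share of all genes under 0.05 by Baggerley's test was not counted. These counts therefore do not show whether the receptors differ from other genes in that test.

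The ligands of these receptors were hardly read in the sorted cells. Csf3 was at 0 RPKM in all 10 libraries, and Csf2, Il3 and Epo did not exceed 0.0839, 0.0315 and 0.0255 RPKM. Il6 reached 1.5 RPKM in 1 library and was at 0.0503 RPKM in another. Of 12 listed cytokine genes 2 passed the filter, Osm (3.54 to 6.08 RPKM), a cytokine of the gp130 family, and Csf1 (0.388 to 7.69 RPKM), the macrophage growth factor.

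Downstream of the receptors, 1 of 11 listed JAK and STAT genes was called between genotypes in GMP, beside 5.22% of all tested genes. The count was 0 without replicate 1 or 2 of Runx1-deleted GMP or replicate 2 of wild-type GMP, and 4 without either wild-type MEP library or with only the groups compared. Jak3, which signals from the common gamma chain, was at 56.4 and 57.4 RPKM in Runx1-deleted GMP and at 28.0 and 18.1 RPKM in wild-type GMP (log2 difference 1.30 ± 0.24, limma adjusted p = 0.00834). Its call ended without replicate 1 or 2 of Runx1-deleted GMP (0.0694 and 0.0741) or replicate 2 of wild-type GMP (0.119). In MEP 0 of 11 passed in limma, and 4 had an unadjusted p under 0.05; without replicate 2 of wild-type MEP 4 passed, and with the length trend removed 2. Medians over the list were 0.40 in GMP and 0.36 in MEP, against 0.05 and 0.03 over all genes. Against Runx1-deleted GMP, 2 of the 11 were higher and 0 lower in XMP, beside 19.7% of all tested genes called, 9.75% higher and 9.90% lower. These were Jak2 and Stat5a, and neither was particular to XMP. Runx1-deleted MEP held 26.1 and 35.3 RPKM of Jak2 and 62.1 and 66.6 RPKM of Stat5a. In XMP, Jak2, the kinase bound by Epor and the beta common chain, was at 27.3 and 27.5 RPKM, against 12.3 and 12.7 RPKM in Runx1-deleted GMP (1.08 ± 0.26, limma adjusted p = 0.0107), a call that ended without any 1 of these 4 libraries (0.0545 to 0.073). Stat5a, which Epor and the beta chains activate, was at 54.2 and 62.5 RPKM in XMP and 38.7 and 40.8 RPKM in Runx1-deleted GMP (0.54 ± 0.17, limma adjusted p = 0.0424), and this call held under 11 of 19 alternatives, ending among others without replicate 1 or 2 of XMP (0.0869 and 0.277), of Runx1-deleted GMP (0.258 and 0.165) or of Runx1-deleted MEP (0.0573 and 0.057).

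Of 13 tested negative regulators 1, Socs3, was called higher and 0 lower in Runx1-deleted cells, in GMP and in MEP alike. Of all tested genes, 3.15% were called higher and 2.07% lower in GMP, and 3.97% higher and 4.03% lower in MEP. In GMP the count was 2 without either wild-type MEP library. In MEP it was 0 without replicate 1 of Runx1-deleted MEP or in lanes 4 and 5, 5 without replicate 2 of wild-type MEP and 4 with the length trend removed. Socs3 is induced by STAT3 and restrains the gp130 and G-CSF receptors. It was at 8.02 and 7.64 RPKM in Runx1-deleted GMP and at 1.16 and 0.898 RPKM in wild-type GMP (log2 difference 2.12 ± 0.21, limma adjusted p = 0.000183). In Runx1-deleted MEP it was at 2.62 and 2.21 RPKM, against 0.494 and 0.590 RPKM in wild-type MEP (1.15 ± 0.21, limma adjusted p = 0.00741), and this call ended without replicate 1 of Runx1-deleted MEP (0.0608) and in lanes 4 and 5 (0.0618). The median over the list was 0.25 in GMP and 0.33 in MEP, against 0.05 and 0.03 over all genes.

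Of 12 listed targets of cytokine signalling, 3 were higher and 0 lower in Runx1-deleted GMP, and 2 were higher and 0 lower in Runx1-deleted MEP. Over all tested genes 3.15% were higher and 2.07% lower in GMP, and 3.97% higher and 4.03% lower in MEP. The count in GMP was 0 without replicate 1 of Runx1-deleted GMP or replicate 2 of wild-type GMP, and 1 without replicate 2 of Runx1-deleted GMP. In MEP it was 0 without either Runx1-deleted MEP library, 1 without any 1 library of Runx1-deleted GMP or wild-type MEP, and 5 with the length trend removed. Pim1, a survival kinase induced by STAT5, was at 140.2 and 132.8 RPKM in Runx1-deleted GMP and at 58.0 and 31.5 RPKM in wild-type GMP (1.65 ± 0.28, limma adjusted p = 0.00528). Without replicate 1 of Runx1-deleted GMP its adjusted p was 0.0543, and without replicate 2 of wild-type GMP 0.0725. Pim2 (0.84, limma adjusted p = 0.019) and Id1 (0.81, limma adjusted p = 0.0256) also passed in GMP, and both calls ended without replicate 1 of Runx1-deleted GMP (0.161 and 0.0938), replicate 2 of Runx1-deleted GMP (0.184 and 0.215) or replicate 2 of wild-type GMP (0.173 and 0.145), that of Id1 also without replicate 1 of wild-type GMP (0.0802).

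In MEP, Pim1 (1.06 ± 0.28, limma adjusted p = 0.0443) and Tfrc, the transferrin receptor (1.63 ± 0.36, limma adjusted p = 0.0198), passed. The call of Pim1 held under 7 of 18 alternatives and ended without replicate 1 or 2 of Runx1-deleted MEP (0.0553 and 0.312), of wild-type MEP (0.15 and 0.0572) or of Runx1-deleted GMP (0.0727 and 0.0729). The call of Tfrc ended without replicate 1 or 2 of Runx1-deleted MEP (0.0624 and 0.131) or replicate 1 of wild-type MEP (0.089). Medians over the list were 0.23 in GMP and 0.15 in MEP, against 0.05 and 0.03 over all genes.

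The pattern most like each receptor over the 10 libraries was found among 7788 genes with a mean of at least 5 RPKM, by Pearson's r of log2(RPKM + 1). The 10 libraries share 5 groups, so these values mostly describe which groups are high and carry no test. For Csf2rb the closest genes were BC064078 (0.991), Cerk (0.985) and Csf3r (0.975). For Csf3r they were BC064078 (0.977), Cerk (0.976) and Csf2rb (0.975), and for Csf2rb2 BC064078 (0.977), Csf2rb (0.973) and Irak4 (0.970). Csf2rb2 and Csf3r correlated with each other at 0.954.

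The alpha chains had other neighbours. They were Padi2, Rin3 and Pak1 for Csf2ra (0.982, 0.982 and 0.977), Card9, Arhgap9 and Traf3ip3 for Il3ra (0.990, 0.989 and 0.984), and, among those closest to Il5ra, Plod3 and Alas1 (0.995 and 0.994). Csf2ra correlated at 0.605 with Csf2rb and at 0.947 with Il3ra. The IL-6 receptor chains were nearest to Plxnd1, Pik3ap1 and Tfec (Il6ra, 0.992, 0.989 and 0.987) and to Atp10a, Mlkl and Nucb2 (Il6st, 0.989, 0.988 and 0.986). Epor was nearest to Optn, Aqp1 and Isca1 (0.993, 0.991 and 0.988), and its r with the other tested receptors ran from -0.972 (Il3ra) to -0.652 (Csf2rb2).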

How the data were processed

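RNA from 10 sorted progenitor libraries in 5 groups of 2 was sequenced. The deposited table gives RPKM for 23240 genes as computed by the authors, and p-values of Baggerley's test, false discovery rate corrected, per the file headers. Per the submitters' processing notes the reads were placed on mm9; which aligner and counter were used is not given in the sources used here. The labels name 2 library kits without saying which library had which. Groups came from the sample labels and lanes from the column headers.

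A filter of 1 RPKM or more in 2 or more libraries left 10905 genes, which were fitted as log2(RPKM + 1) with limma 3.58.1 in R 4.3.3 (trend, all 10 libraries, 1 mean per group, 5 residual degrees of freedom), and called at a Benjamini-Hochberg adjusted p under 0.05 over all of them. The fit was tested on simulated data. Reads were worked back from RPKM: all values of 19336 genes were whole within 0.01 read, 3904 genes were at 0, and 75.2% to 83.2% of a library's total lay in genes.

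Named genes were all 9 receptors, up to 4 called genes per direction of each list and comparison, and the 3 genes closest to each receptor; only some of the list genes are printed, and some named by this rule are not reported here. The receptors and lists were chosen with earlier results of these data known. Alternatives were a pseudocount of 0.1, quantile normalization, leaving the filter out, keeping genes averaging 5 RPKM or more, only the groups compared, a replicate block, leaving out each library, lanes 4 and 5, and removal of a length trend (lowess, span 0.3). Replicate numbers were not taken as pairs, since the labels give no shared source and the 2 numbers of a group leave 2 pairs. The column headers also number the libraries serially. These numbers run in 2 sets, each with a library of every group, and Runx1-deleted GMP has its replicate numbers swapped between them. What the sets stand for is not given, and they were not fitted as a block over all groups.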

Additional observations from a re-analysis of the deposited data

How the results depend on the processing

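Over the 8 tested receptors and 7 comparisons, 1008 refits were made: 946 kept direction and call, 36 lost the call, 26 gained one, and 0 turned a called direction. For list genes named per comparison, 1236 of 1411 refits kept the call and 175 lost it. Removing the length trend and limiting the fit to lanes 4 and 5 changed receptor calls as given beside the results, and lanes 4 and 5 could not be fitted for comparisons with wild-type GMP. The cause of the changes was not tested.

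Receptor calls were 2 in GMP, and 1 with a pseudocount of 0.1, 0 without a filter (limma) and 4 with only the groups compared. In MEP they were 4, and 2 without a filter or in lanes 4 and 5. For XMP against Runx1-deleted MEP they were 4, and 7 with only the groups compared, in lanes 4 and 5 or with the length trend removed. Calls over all genes in GMP were 569, and 196 with a mean of at least 5 RPKM and 1925 with only the groups compared. In MEP they were 872, and 412, 340 and, with the length trend removed, 1357. For the difference of effects they were 190, and 80 with a pseudocount of 0.1, 63 with a mean of at least 5 RPKM and 337 with the length trend removed. For XMP against Runx1-deleted GMP they were 2143, and 1200 with a mean of at least 5 RPKM and 3216 with only the groups compared. For XMP against Runx1-deleted MEP they were 844, and 1542 in lanes 4 and 5 and 1611 with the length trend removed. A mean of at least 5 RPKM gave 1380 calls between wild-type GMP and MEP, against 2352, and 1579 between the Runx1-deleted ones, against 2675.

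Leaving out 1 library gave, for receptors and for all genes, 0 to 4 and 233 to 1729 calls in GMP, 2 to 5 and 361 to 3427 in MEP, 0 to 0 and 55 to 475 for the difference, 5 to 7 and 1381 to 2790 for XMP against Runx1-deleted GMP, 3 to 6 and 305 to 1462 for XMP against Runx1-deleted MEP, 8 to 8 and 1636 to 3315 between wild-type GMP and MEP, and 8 to 8 and 1770 to 3405 between the Runx1-deleted ones.

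Same-numbered libraries deviated from their group means at r of -0.059 in GMP genotypes and 0.297 in MEP genotypes, and at -0.475 and 0.782 for XMP with Runx1-deleted GMP and MEP. With the replicate number as a block, receptor calls were 2 in GMP, 3 in MEP (Epor, adjusted p = 0.058), 0 for the difference, 7 and 4 for XMP, and 8 and 8 between GMP and MEP, with 552, 844, 173, 2120, 801, 2313 and 2595 genes called in that order. Crossing the numbers as a block, an alternative chosen after seeing the data, gave 4757 calls for XMP against Runx1-deleted GMP, 4417 between Runx1-deleted GMP and MEP and 2207 between the wild-type ones. The crossing matched the serial numbers of the column headers in the Runx1-deleted pairs and not in the wild-type pair. For XMP against Runx1-deleted GMP it called all 8 tested receptors, Csf2rb2 among them (limma adjusted p = 0.00527).

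With 2 libraries a group, the spread is shared over all groups. Depth limits Il5ra, with 1 to 12 reads outside GMP, and Epor in GMP, with 13 to 25 reads per library.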

Other observations

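The other class I and class II cytokine receptors, 20 of 31 of which passed the filter, had calls in both directions in MEP. In Runx1-deleted MEP, Il11ra1, the IL-11 receptor alpha chain, was at 5.84 and 6.06 RPKM, against 14.7 and 11.9 RPKM in wild-type MEP (log2 difference -1.03 ± 0.18, limma adjusted p = 0.006). Crlf2, a chain of the TSLP receptor, was at 24.5 and 22.8 RPKM in Runx1-deleted MEP and at 51.0 and 42.9 RPKM in wild-type MEP (-0.96 ± 0.18, limma adjusted p = 0.00825), a call that ended without replicate 2 of Runx1-deleted MEP (0.0675). With Ifngr1 lower and Lifr higher, 1 of 20 was higher and 3 were lower in MEP, beside 3.97% and 4.03% of all tested genes (2 were called without replicate 2 of Runx1-deleted MEP or replicate 1 of wild-type MEP), while Il12rb1 was among those higher in GMP. The call of Ifngr1 held under 4 of 18 alternatives and ended without any 1 library of Runx1-deleted GMP, wild-type GMP or XMP and without replicate 1 of either MEP group, with adjusted p up to 0.22. That of Il12rb1 held under 4 of 16 and ended without any 1 library but those of wild-type MEP, with adjusted p up to 0.235. That of Lifr ended without replicate 2 of Runx1-deleted MEP (0.121) or replicate 1 of wild-type MEP (0.0614) and with the length trend removed (0.529). The medians over the list were 0.12 in GMP and -0.16 in MEP, against 0.05 and 0.03 over all tested genes.

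In XMP, 4 of the 20 were higher and 6 lower than in Runx1-deleted GMP, beside 19.7% of all tested genes called, and 4 were higher and 0 lower than in Runx1-deleted MEP, beside 7.74%. The count against Runx1-deleted MEP was 1 without replicate 1 of XMP or replicate 2 of Runx1-deleted MEP, and 7 in lanes 4 and 5 or with the length trend removed. Il27ra, a receptor chain that pairs with gp130, was at 16.1 and 18.4 RPKM in XMP and at 4.58 and 4.71 RPKM in Runx1-deleted GMP (1.69 ± 0.19, limma adjusted p = 5.23e-05). Lifr, the leukaemia inhibitory factor receptor, another partner of gp130, was at 1.36 and 1.33 RPKM in XMP and at 0.145 and 0.248 RPKM in Runx1-deleted GMP (0.97 ± 0.13, limma adjusted p = 0.000268). Socs2, an inhibitor of growth hormone signalling, averaged 2.99 ± 0.245 RPKM in XMP and 0.555 ± 0.203 RPKM in Runx1-deleted GMP (1.36 ± 0.20, limma adjusted p = 0.000442). Of the 13 tested negative regulators 1 was higher and 2 were lower there, beside the same 19.7% of all tested genes. Il27ra, Lifr and Socs2 were also called higher in Runx1-deleted MEP than in Runx1-deleted GMP. Their levels in Runx1-deleted MEP were 11.2 and 12.5, 0.573 and 0.798, and 3.10 and 1.95 RPKM.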
